A study of Rattus norvegicus with 12 samples.

Results

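The genes described here are Alas2, Hbb, Slc4a1 and Ahsp, which are made by red blood cells and their precursors and were measured in rat liver during chemical carcinogenesis. They are 4 of 14217 genes with a probe set of their own. All probe sets that the platform annotation assigns to exactly 1 of these symbols were taken, which gave 5 of the 31042 probe sets tested: 1 each for Alas2, Hbb and Ahsp and 2 for Slc4a1. RNA of 12 tissue samples was hybridised to 12 single-colour Rat 230 2.0 arrays, 3 for each of 4 groups of adult male Sprague-Dawley rats. The control group received distilled water. The other groups were given diethylnitrosamine (DEN), an alkylating liver carcinogen, by intraperitoneal injection. The schedule was 70 mg/kg once a week for 10 weeks. They were sampled at the hepatitis (week 5), cirrhosis (weeks 13 to 14) and hepatocellular carcinoma (HCC) stages (weeks 23 to 24). If the weeks count from the first injection, week 5 falls within this schedule and the later stages fall after it. Doses received and time since the last dose then differ between stages, and their part was not tested. The series description calls the HCC-stage group HCC tissue, while the tissue label is liver for all 12 samples. The labels give no sacrifice time for the controls and no record of whether livers were flushed of blood. Nor do they state whether the 3 arrays of a group come from different animals. The p-values therefore reflect the spread among these samples, which may be technical.

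Red cells are made in the bone marrow of adult rats, and in the liver of the fetus. Alas2 is the erythroid form of the first enzyme of haem synthesis, Hbb encodes the beta chain of haemoglobin, Ahsp encodes a chaperone that holds free alpha globin, and Slc4a1 encodes band 3, the anion exchanger and main membrane anchor of the red cell. Reticulocytes, the young red cells in blood, have lost their nucleus but still hold globin and other messages, so that a piece of an organ carries this RNA with its blood. In bulk tissue fewer cells of a type and less RNA per cell cannot be told apart.

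The upstream sequence of Hbb is shown because this gene had the widest range over the stages among the 5 probe sets, and because its level went with that of an alpha globin gene, described later. The 250 bases before the RefSeq start of Hbb lie on the minus strand of rat build GRCr8 at chr1:167663722-167663971, and capitals mark the motifs found.
Hbb: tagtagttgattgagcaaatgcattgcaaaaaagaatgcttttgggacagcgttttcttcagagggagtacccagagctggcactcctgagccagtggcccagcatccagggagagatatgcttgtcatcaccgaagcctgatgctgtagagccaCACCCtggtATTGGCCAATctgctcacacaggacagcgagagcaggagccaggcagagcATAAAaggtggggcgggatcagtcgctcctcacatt
With the start as base 1 and the base before it as base -1, the motif CACCC stands at bases -95 to -91, CCAAT at -81 to -77, the same motif on the other strand at -86 to -82, and ATAAA at -36 to -32. These motifs did not overlap. Searched on both strands in 33469 upstream windows of the same length, CACCC was in 49.2% of windows, CCAAT in 34.0% and ATAAA in 39.3%. The motif AGATAA, a letter match for the erythroid GATA factors, was in 10.3% of windows and not in these letters of Hbb. These matches are a description of the sequence. The table holds a window for Alas2 too, but it starts inside the annotated gene and is not printed, and Slc4a1 and Ahsp had none.

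Hepatocyte genes were bright on every array: albumin (Alb) lay at an intensity of 12686 or more, transthyretin (Ttr) at 4915 or more and Apoa1 at 5341 or more. Values are the authors' linear intensities, analysed as log2(value + 16), so that differences of dim probe sets are understated. The median intensity of an array was 28.69 to 30.94. Markers of nucleated erythroid precursors differed in level. Gata1 and Klf1, transcription factors of erythroblasts, had intensities of 7.52 to 10.4 and 14.4 to 21.1 over the 12 arrays, and the membrane genes Epb42 and Rhag had 7.85 to 14.7 and 8.66 to 13.7, without a call in any stage against control. Near or under the added 16 a fall would hardly show, so the lack of a call says little for these genes. Other factors that erythroid cells share with further cell types were brighter, with 50.2 to 89.0 for Tal1 and 124 to 269 for Lmo2, also without a call. Nfe2, described later, was called lower at all 3 stages. The HCC arrays stood apart in RNA quality: for Gapdh the 3' control probe set exceeded the 5' one, on the log2 scale, by 1.35 to 3.14 in HCC, against 0.87 to 1.02 in control. The difference was smaller in hepatitis, at 0.38 to 0.69, and in cirrhosis, at 0.42 to 0.56, than in control, without overlap. For beta-actin the same difference was 3.82 to 4.85 in HCC, against 2.41 to 2.69 in control. In hepatitis, at 2.14 to 2.54, and in cirrhosis, at 2.22 to 2.42, it overlapped with control. Both control genes thus set HCC apart from control, while only Gapdh set the other stages apart. The part of RNA quality in the members' differences was not tested.

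Alas2 was lower at every DEN stage than in control, at about the same level in all 3. Its intensity was 161, 242 and 137 on the control arrays, 53.2, 22.9 and 50.0 in hepatitis, 33.0, 40.3 and 42.5 in cirrhosis and 32.7, 26.3 and 31.0 in HCC. Every DEN array lay below every control array. The mean of 42 ± 16.6 in hepatitis, against 180 ± 54.7 in control (SD, n = 3 each), was 4.28-fold lower. The means of 38.6 ± 5.01 in cirrhosis and 30.0 ± 3.31 in HCC were 4.67-fold and 6.01-fold lower than in control. The DEN values of 22.9 to 53.2 lay around the array medians of 28.69 to 30.94. At this level a further fall between stages may not show, and the folds are uncertain.

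On the log2 scale the difference of Alas2 from control was -1.77 ± 0.23 in hepatitis (SE; limma adjusted p = 0.00554), -1.81 ± 0.23 in cirrhosis (limma adjusted p = 0.00613) and -2.06 ± 0.23 in HCC (limma adjusted p = 0.000295). The same control arrays stand in all 3 comparisons. Between stages no difference of Alas2 passed the test: cirrhosis minus hepatitis was -0.05 (95% interval -0.57 to 0.48), HCC minus hepatitis -0.29 (-0.82 to 0.23) and HCC minus cirrhosis -0.25 (-0.77 to 0.28). The 3 HCC values lay below the 3 of cirrhosis by a narrow margin, 32.7 in HCC against 33.0 in cirrhosis at the nearest. The calls against control held whichever array was left out and under all 8 other settings, with a highest adjusted p of 0.0421 (limma).

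**Figure D1:**
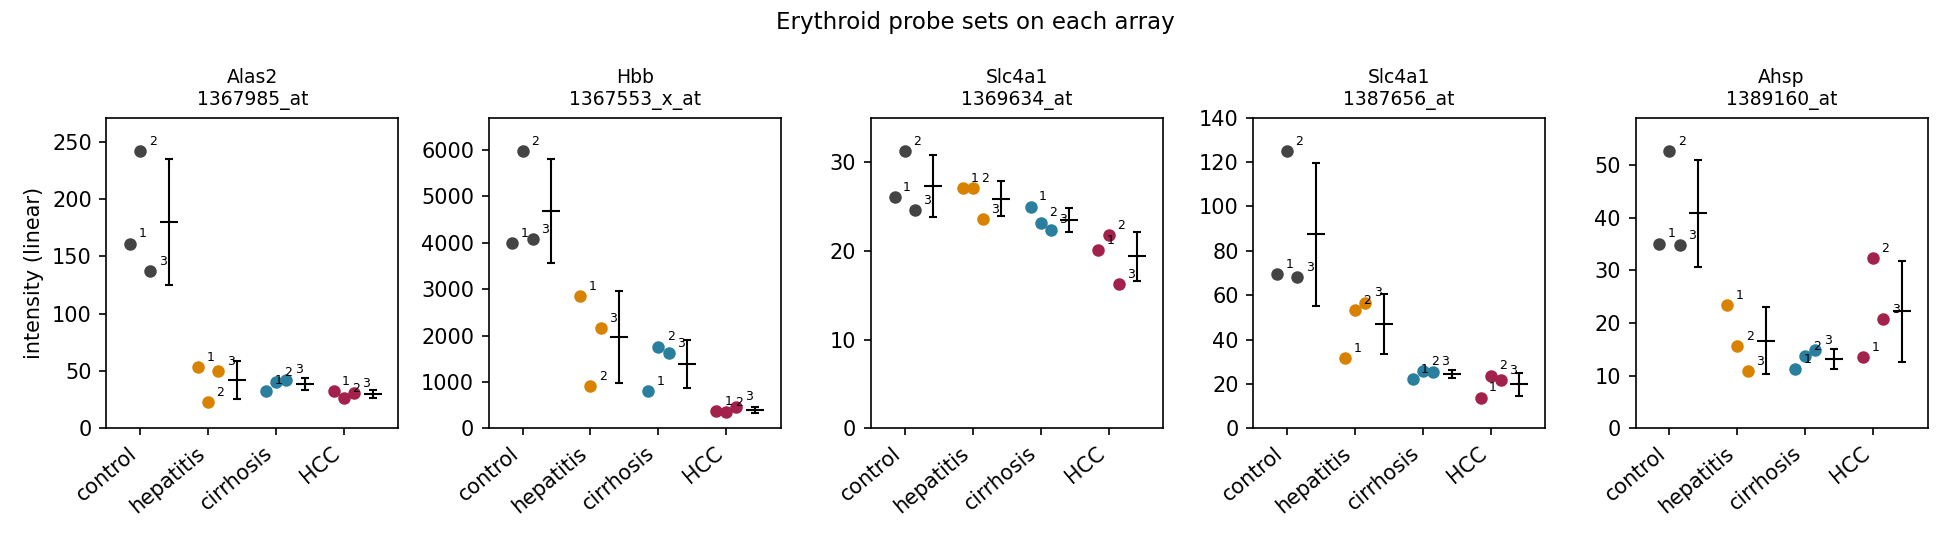
Linear intensity (vertical axis, from 0) of the 5 probe sets on each array in the 4 groups, with the replicate number beside each point; the bar is the group mean with its standard deviation (n = 3). Alas2 drops at hepatitis and stays low, Hbb is lowest in HCC at 353 to 469, and control replicate 2 is the highest array in all 5 panels.

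The group mean of Hbb was lower at each successive stage and lowest in HCC, with hepatitis and cirrhosis not told apart. Its probe set gave intensities of 3994, 5984 and 4074 in control, 2857, 904 and 2167 in hepatitis, 804, 1764 and 1620 in cirrhosis and 377, 353 and 469 in HCC. Control did not overlap with any stage, hepatitis and cirrhosis overlapped with each other, and HCC lay below all of them. The HCC mean of 400.0 ± 61.0, against 4684 ± 1127 in control (SD, n = 3 each), was 11.7-fold lower. The _x_at suffix of this probe set marks probes that may also match other transcripts, so that close beta globin copies cannot be kept apart.

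Hbb fell by 3.48 ± 0.42 in HCC (log2, SE; limma adjusted p = 0.000378), and the call held in all 20 other fits. In cirrhosis it fell by 1.79 ± 0.42 with an adjusted p of 0.0499 in limma, just under the threshold, and the call ended when any 1 of 10 arrays was left out (adjusted p = 0.0501 to 0.174); it held without hepatitis replicate 1 or 2. In hepatitis the difference of -1.36 ± 0.42 did not pass (limma adjusted p = 0.133, 95% interval -2.30 to -0.42 before adjustment). HCC differed from both earlier stages, at -2.12 ± 0.42 from hepatitis (limma adjusted p = 0.00461) and -1.70 ± 0.42 from cirrhosis (limma adjusted p = 0.0122). Cirrhosis minus hepatitis was -0.42, with an interval of -1.36 to 0.52.

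Slc4a1 had a brighter and a dimmer probe set. The brighter one had intensities of 69.4, 125 and 68.2 in control, 31.6, 53.3 and 56.6 in hepatitis, 22.3, 25.7 and 25.6 in cirrhosis and 13.8, 23.7 and 21.8 in HCC. Each stage lay below control, and cirrhosis and HCC below hepatitis. The mean was 24.5 ± 1.95 in cirrhosis, against 87.4 ± 32.2 in control (SD, n = 3 each). The dimmer one ranged over no more than 16.3 to 31.3 on all 12 arrays.

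The brighter Slc4a1 probe set fell by 1.31 ± 0.22 in cirrhosis (log2, SE; limma adjusted p = 0.017), and the call ended without any 1 of the 3 cirrhosis arrays (adjusted p = 0.0637 to 0.0698). It fell by 1.50 ± 0.22 in HCC (limma adjusted p = 0.001), while its difference in hepatitis was -0.69 ± 0.22 (limma adjusted p = 0.146). HCC was also lower than hepatitis, at -0.81 ± 0.22 (limma adjusted p = 0.0215), a call that ended without hepatitis replicate 2 (0.0754), hepatitis replicate 3 (0.074) or HCC replicate 1 (0.0622). The dimmer probe set had a difference of -0.29 ± 0.07 in HCC against control (limma adjusted p = 0.0157, or 0.0588 without control replicate 2). Against hepatitis it was -0.25 ± 0.07 (limma adjusted p = 0.0332), and that call ended without hepatitis replicate 1 (0.098), hepatitis replicate 2 (0.103), cirrhosis replicate 2 (0.0503) or HCC replicate 3 (0.105). In hepatitis and cirrhosis it differed from control by -0.04 and -0.13, neither called, and without control replicate 2 the hepatitis difference turned to 0.02.

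Ahsp was dim, and lower than control in cirrhosis and HCC. Its intensities were 35.1, 52.7 and 34.8 in control, 23.4, 15.6 and 10.8 in hepatitis, 11.2, 13.7 and 14.8 in cirrhosis and 13.5, 32.3 and 20.7 in HCC. All DEN arrays lay below all controls, with HCC replicate 2 close to the lowest control. The mean was 13.2 ± 1.86 in cirrhosis, against 40.8 ± 10.2 in control (SD, n = 3 each). At this level, near the added 16, no fold is given.

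Ahsp fell by 0.95 ± 0.20 in cirrhosis (log2, SE; limma adjusted p = 0.0344) and by 0.59 ± 0.20 in HCC (limma adjusted p = 0.0489). The cirrhosis call ended without any 1 of 7 arrays, namely the 3 controls, the 3 cirrhosis arrays and hepatitis replicate 2 (adjusted p = 0.0505 to 0.121). The HCC call ended without any of those 7 or without HCC replicate 1 or 3 (adjusted p = 0.0664 to 0.168). In hepatitis the difference of -0.80 ± 0.20 had a limma adjusted p of 0.066, which passed without HCC replicate 1 (0.0337) or HCC replicate 2 (0.029). HCC minus cirrhosis was 0.36 (95% interval -0.08 to 0.80) and HCC minus hepatitis 0.21 (-0.23 to 0.66), and neither passed.

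**Figure D2:**
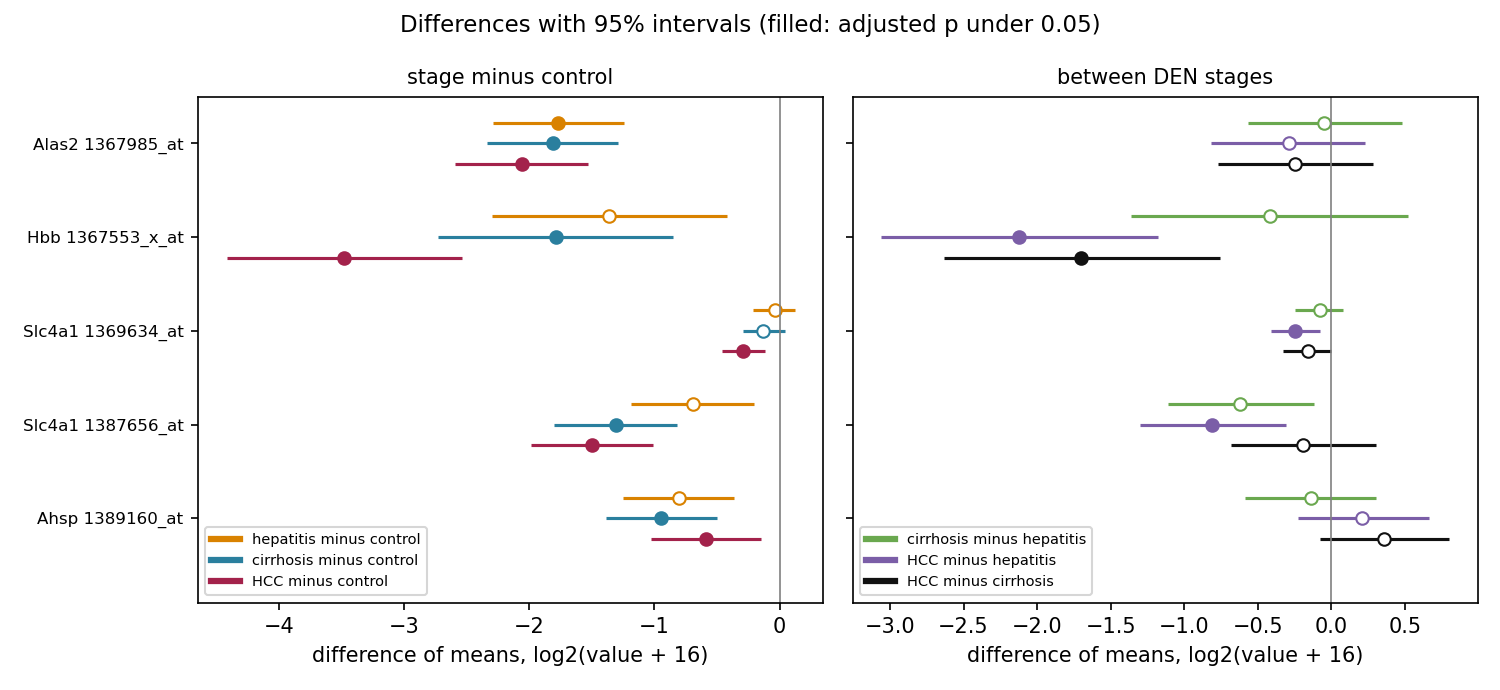
Difference of group means on the log2(value + 16) scale (horizontal axis) with its 95% interval before adjustment for the 5 probe sets, each stage minus control on the left and differences between DEN stages on the right; filled points have an adjusted p under 0.05. The intervals of Alas2 against control nearly coincide, while Hbb in HCC lies at -3.48 and is the only probe set called in HCC minus cirrhosis.

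Counted over the 5 probe sets, 1 was called lower in hepatitis, where 1.53% of all probe sets were called lower, 4 in cirrhosis, where 2.04% were, and 5 in HCC, where 14.1% were. None was called higher. The 3 arrays of the stage lay below the 3 controls in 4 probe sets in hepatitis (14.7% of all probe sets), in 4 in cirrhosis (17.9%) and in 5 in HCC (19.2%). Their median difference was -0.80, -1.31 and -1.50 at the successive stages, with medians of all probe sets between -0.01 and 0.01. Between stages 0 were called in cirrhosis against hepatitis by limma (0.361% of all called lower), where 1 of 5 had an unadjusted p under 0.05. In HCC 3 were called lower than in hepatitis (13.4%) and 1 lower than in cirrhosis (14.8%). All arrays of the later stage lay below those of the earlier one in 1 probe set for cirrhosis against hepatitis (11.3% of all), in 3 for HCC against hepatitis (17.2%) and in 3 for HCC against cirrhosis (20.8%). The 4 genes were chosen with earlier results of these data known, so these counts describe them and are no independent support.

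The count in cirrhosis depended on single arrays. It was 2 without control replicate 1, 2 or 3, and 1, Alas2, without cirrhosis replicate 1, 2 or 3. In HCC against control 3 of the 5 calls were left without control replicate 2, and in HCC against hepatitis 1 of 3 was left without hepatitis replicate 2. In hepatitis the count was 2 without HCC replicate 1 or HCC replicate 2.

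Within groups, Alas2 and Hbb had the highest correlation of the 10 pairs of probe sets. Hepatitis replicate 2 was lowest of its group in both, at 0.53 below the group mean in log2 for Alas2 and 0.96 below for Hbb, and cirrhosis replicate 1 was lowest of its group in both, at -0.15 and -0.70. Control replicate 2 was highest of the controls in all 5 probe sets, by 0.13 to 0.49 over the group mean. After subtraction of group means the Pearson correlation of Alas2 with Hbb over the 12 arrays was 0.85, and 0.87 over the 9 arrays without HCC. The brighter Slc4a1 probe set had correlations of 0.20 with Alas2 and 0.02 with Hbb on that measure, or 0.28 and 0.01 without HCC. Ahsp had 0.27 with Alas2 and 0.32 with Hbb, or 0.53 and 0.49 without HCC. The dimmer Slc4a1 probe set had 0.55 with Ahsp, or 0.71 without HCC. On hepatitis replicate 2, where Hbb and Alas2 were low, Slc4a1 stood 0.16 over its group mean. The pairs share their arrays, and the values are given as a description.

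**Figure D3:**
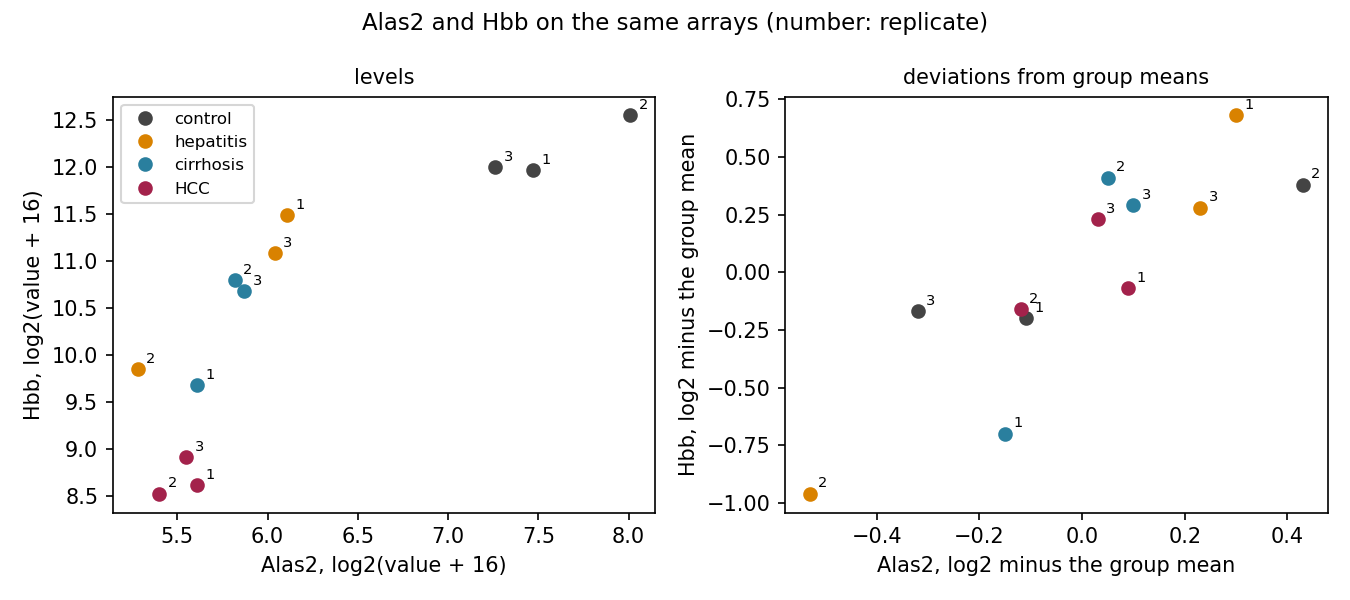
Alas2 (horizontal) against Hbb (vertical) on the 12 arrays, as log2(value + 16) on the left and as deviations from the group means on the right, with colours for groups and numbers for replicates. Controls lie at the top right, HCC arrays at the bottom left, and hepatitis replicate 2 is the lowest point of the right panel at -0.53 and -0.96.

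Among other globins an adult alpha globin gene was also lower, and embryonic-type genes were dim. Of 5 further globin genes with a probe set of their own, 1 was called lower in cirrhosis and 1 in HCC, in both cases Hba-a3, and 0 in hepatitis by limma (1 at an unadjusted p under 0.05). Hba-a3, an alpha globin gene, had intensities of 1264, 1490 and 881 in control, 740, 281 and 454 in hepatitis, 238, 351 and 426 in cirrhosis and 199, 238 and 199 in HCC. Its difference from control was -1.80 in cirrhosis (limma adjusted p = 0.0236, up to 0.0899 without 1 array), -2.40 in HCC (limma adjusted p = 0.000735) and, not called, -1.35 in hepatitis (limma adjusted p = 0.0661). The cirrhosis call of Hba-a3 ended without control replicate 1 or 2 or any 1 of the cirrhosis arrays. The mean intensities of the embryonic-type genes Hbe1, Hbe2, Hbg1 and Hbz in HCC were 9.45, 9.79, 8.98 and 5.91, and none of these genes was called in any stage against control. Another 6 probe sets are annotated to 2 globin genes each and are not named by gene: by limma 0 were called in hepatitis (lowest adjusted p = 0.11), 2 were lower in cirrhosis and 6 in HCC, with differences of -4.07 to -0.48 in HCC. The cirrhosis count of these ran from 0 to 4 and the HCC count from 4 to 6 over the fits that left out 1 array.

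Haem synthesis genes other than Alas2 are used by hepatocytes as well as by erythroid cells. Of 14 measured, 1 was lower in hepatitis, 0 were called in cirrhosis by limma (3 at an unadjusted p under 0.05) and 10 were lower in HCC, and none was higher. Beside the list counts above and below, 285 of all 14217 genes were lower in hepatitis, 283 in cirrhosis and 2595 in HCC. The HCC count was 8 to 11 when 1 array was left out, and the hepatitis count was 3 without HCC replicate 1. The mean log2 level of the list was 8.24 to 8.46 in hepatitis, 8.28 to 8.44 in cirrhosis and 7.55 to 7.90 in HCC, against 8.54 to 8.66 in control, without overlap with control, and 9, 13 and 13 of the 14 differences were below 0. Alas1, the form of the first enzyme that all tissues make, fell by 1.25 in hepatitis (limma adjusted p = 0.0407, from 0.00611 to 0.158 without 1 array). Its intensities were 510, 712 and 581 in hepatitis, against 1476, 1363 and 1496 in control. That call held in 3 of the 12 fits without 1 array, those without an HCC array. In cirrhosis its difference was -1.07 (limma adjusted p = 0.0654), and in HCC it fell by 2.15 (limma adjusted p = 0.000464). The other large falls in HCC were the porphyrin transport gene Tmem14c at -2.22, Alad, the second enzyme of the pathway, at -2.07, and Fam210b, a mitochondrial gene, at -1.27.

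Red cell membrane and skeleton genes other than Slc4a1 had calls in both directions in cirrhosis and HCC. Of 17 measured 0 were called in hepatitis by limma (4 at an unadjusted p under 0.05). In cirrhosis 1 was higher and 1 lower, and in HCC 1 was higher and 3 lower. Of all 14217 genes 234 were higher and 283 lower in cirrhosis, and 2721 and 2595 in HCC. The mean log2 level of the list was 6.02 to 6.07 in hepatitis, 6.14 to 6.17 in cirrhosis and 5.78 to 6.02 in HCC, against 6.0 to 6.02 in control, and 13 of 17 differences were below 0 in HCC. Dmtn, which encodes the actin-binding protein dematin, differed from control by -0.31 in cirrhosis (limma adjusted p = 0.0292, up to 0.119 without 1 control or 1 cirrhosis array) and by -0.34 in HCC (limma adjusted p = 0.00272). The water channel Aqp1, which bile duct and endothelial cells also express, rose by 1.52 in cirrhosis (limma adjusted p = 0.0052), with 229, 270 and 249 in cirrhosis, against 77.7, 86.6 and 66.6 in control. In HCC Cd47 fell by 1.35 (limma adjusted p = 0.0252, up to 0.0758), Epb41 rose by 0.65 (0.0129, and 0.0521 without control replicate 2) and Tspan33 fell by 0.38 (0.0356, up to 0.103). The HCC count of lower genes was 1 without control replicate 1 and 5 without HCC replicate 2.

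Among 15 transcription factors of erythroid cells 1 was lower in hepatitis, the same 1 in cirrhosis, and 2 were lower and 2 higher in HCC. Of all 14217 genes 2595 were lower and 2721 higher in HCC. Nfe2, a factor of erythroid cells and megakaryocytes, had intensities of 109, 47.9 and 46.2 in control, 8.96, 13.3 and 9.02 in hepatitis, 13.8, 23.7 and 14.8 in cirrhosis and 9.50, 12.0 and 6.82 in HCC. All 9 DEN arrays lay below the 3 controls. Its difference from control was -1.59 in hepatitis (limma adjusted p = 0.0103), -1.26 in cirrhosis (0.0266) and -1.64 in HCC (0.00101). The cirrhosis call ended without control replicate 2 or any 1 of the cirrhosis arrays (up to 0.099). In HCC Foxo3 fell by 0.61, while E2f4 and E2f2, cell cycle factors, rose by 0.63 and 0.46 (limma adjusted p = 0.000218 to 0.00675 over these 3).

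Erythropoietin signalling and iron uptake genes were not called in hepatitis or cirrhosis, with 0 of 12 by limma in both (3 and 2 at an unadjusted p under 0.05). In HCC 2 were higher and 5 lower, and 3 lower without control replicate 1, while 2721 of all 14217 genes were higher and 2595 lower. Kitlg, the ligand of the receptor Kit, rose by 1.48 (limma adjusted p = 0.00758) and the transferrin receptor Tfrc by 0.93 (0.0144). Kitlg also lay above all controls on every hepatitis and cirrhosis array. Its differences there, not called, were 1.29 (limma adjusted p = 0.0714) and 1.04 (0.126). The iron sensor Tfr2 fell by 1.26 (limma adjusted p = 0.00604) and the ferrireductase Steap3 fell by 0.85 (0.00513). Of 14 red cell enzyme and maturation genes 0 were called in hepatitis by limma (3 at an unadjusted p under 0.05), 1 was lower in cirrhosis and 4 were lower and 1 higher in HCC. Bpgm, which makes the haemoglobin ligand bisphosphoglycerate, differed from control by -0.89 in cirrhosis (limma adjusted p = 0.00527) and by -0.68 in HCC (0.00164), with 106, 99.5 and 81.8 in cirrhosis, against 180, 224 and 170 in control. Both Bpgm calls held whichever array was left out. Without control replicate 1 the HCC count was 2 lower and 0 higher.

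**Figure D4:**
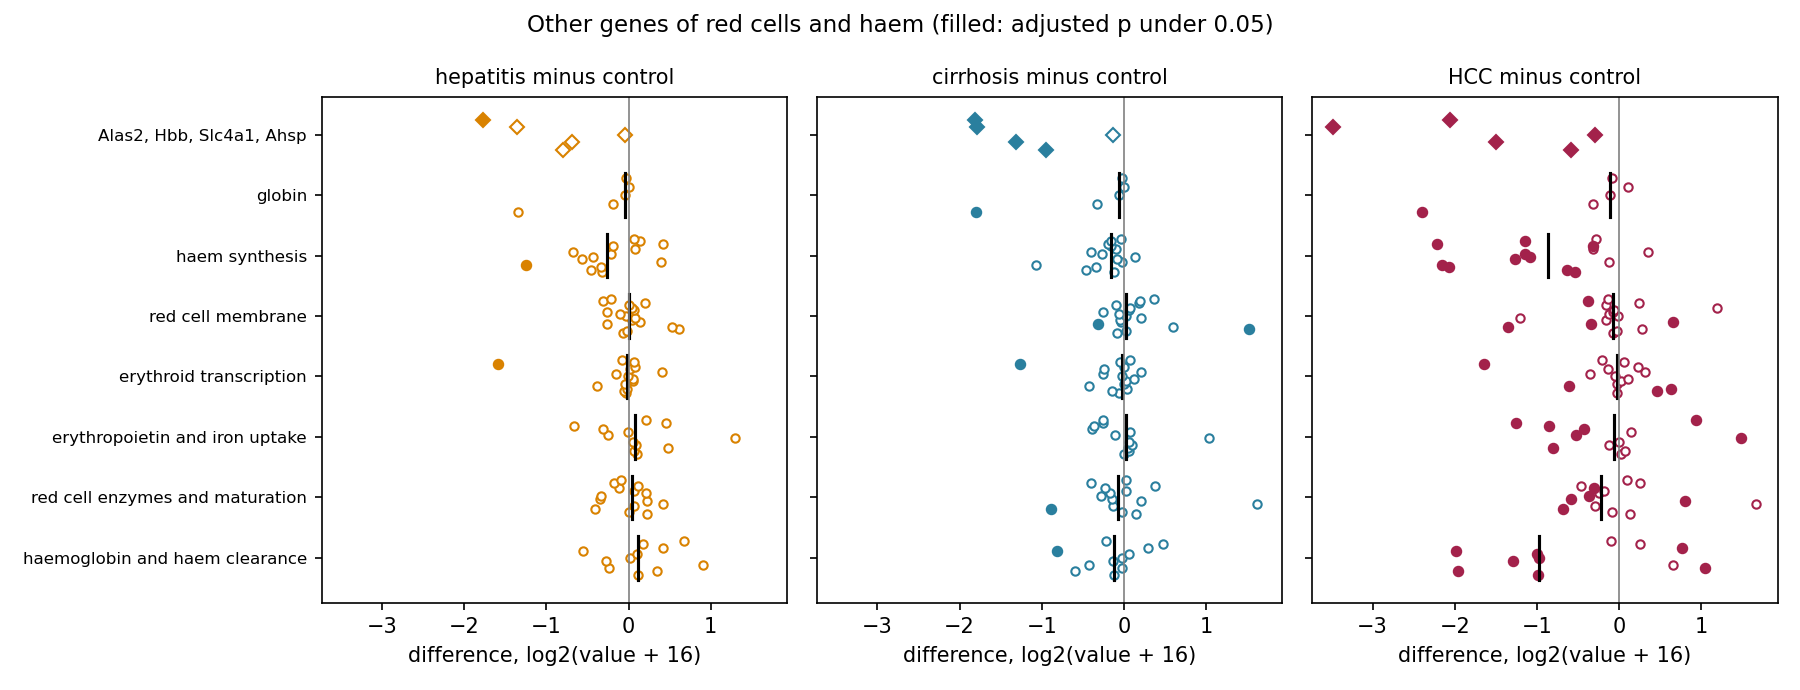
Difference from control on the log2(value + 16) scale (horizontal axis) of each gene in 7 lists of red cell and haem genes at the 3 DEN stages, with the 5 probe sets of Alas2, Hbb, Slc4a1 and Ahsp in the top row (diamonds); filled points have an adjusted p under 0.05 and the black line is the list median. Of the list genes Nfe2 and Hba-a3 lie furthest to the left in hepatitis and cirrhosis, with Alas1 next at -1.25 and -1.07. In HCC Hba-a3 at -2.40 and several haem synthesis and clearance genes, such as Tmem14c at -2.22, lie left of Nfe2 at -1.64. The haem synthesis median is -0.26 in hepatitis and -0.16 in cirrhosis, and haem synthesis and clearance genes lie to the left in HCC at medians of -0.87 and -0.97.

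Genes of haemoglobin and haem clearance span binding, uptake, breakdown and export. In hepatitis 0 of 11 were called by limma (5 at an unadjusted p under 0.05). In cirrhosis 1 was lower, Lrp1, a receptor for haem bound to hemopexin among many other ligands, which fell by 0.81 (limma adjusted p = 0.0268, up to 0.106 without 1 control or 1 cirrhosis array). In HCC 6 were lower and 2 higher, and 4 were higher without HCC replicate 3. Lrp1 fell by 1.98, the haemoglobin scavenger receptor Cd163 fell by 1.96, the haem oxygenase Hmox2 fell by 1.29, and the haem exporter Flvcr1 rose by 1.05 (limma adjusted p = 5.46e-05 to 0.00181 over these 4). Over all 14217 genes 285 were lower and 245 higher in hepatitis, 283 and 234 in cirrhosis, and 2595 and 2721 in HCC. The median of all genes lay between 0.00 and 0.01 in each.

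In the lists of other blood cells, which do not hold Nfe2, no gene was called lower in hepatitis or cirrhosis. Of all 14217 genes 285 and 283 were, a share so low that lists of this size may hold none. In HCC 2595 of all genes were lower and 2721 higher. Of 11 platelet genes 0 were called in either by limma (1 and 2 at an unadjusted p under 0.05), and in HCC 3 were lower and 0 higher. Of 7 genes of haematopoietic progenitors 0 were called in hepatitis or cirrhosis by limma (1 and 0 at an unadjusted p under 0.05), and 1 was higher and 1 lower in HCC. Of 10 neutrophil genes 2 were higher in hepatitis, S100a8 at 2.30 and S100a9 at 2.33 (limma adjusted p = 0.0131 and 0.0161), calls that ended without control replicate 1 or 2 or hepatitis replicate 1 (up to 0.0623 and 0.0741). In cirrhosis 0 neutrophil genes were called by limma (3 at an unadjusted p under 0.05), and 1 was higher and 1 lower in HCC. Of 10 T and B cell genes 0 were called in hepatitis or cirrhosis by limma (2 and 0 at an unadjusted p under 0.05) and 5 were higher in HCC, or 3 without control replicate 1 and 7 without HCC replicate 2. The mean log2 level of the platelet list was 5.84 to 5.96 in hepatitis, 5.65 to 5.72 in cirrhosis and 5.42 to 5.55 in HCC, against 5.69 to 5.82 in control. The lymphocyte list stood at 5.34 to 5.61 in hepatitis, 5.31 to 5.38 in cirrhosis and 5.36 to 6.0 in HCC, against 5.09 to 5.34 in control. The part of these cells in the members' differences was not tested.

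In HCC genes of other cell types differed from control as well. Beside the counts that follow, 2595 of all 14217 genes were lower and 2721 higher in HCC. Hepatocyte genes had a mean log2 level of 12.15 to 12.91 in HCC, against 12.99 to 13.00 in control, with 3 of 9 called lower, or 1 without control replicate 1 and 5 without HCC replicate 2. Macrophage and Kupffer cell genes, of cells that clear old red cells, had 7.84 to 8.13 in HCC, against 8.73 to 9.86 in control, with 6 of 11 called lower and 1 higher. Cell proliferation genes had 6.88 to 8.08 in HCC, against 5.91 to 6.50 in control, with 11 of 14 higher, or 8 without control replicate 1. In hepatitis 1 of these 14 was higher, and in cirrhosis 0 were called by limma (0 at an unadjusted p under 0.05). These shifts and the RNA quality differed from control in the same HCC group as the 5 probe sets. The part of either in the HCC values of the 5 probe sets was not tested. In hepatitis and cirrhosis 0 of 9 hepatocyte genes and 0 of 11 macrophage genes were called by limma (1 and 2 in hepatitis and 0 in cirrhosis at an unadjusted p under 0.05).

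The genes most like each member over the 12 arrays were found by Pearson correlation, and are given as a description without a test. Genes were eligible whose highest and lowest array differed by at least 1 log2 unit. Symbols that start with LOC or RGD were passed over. For Alas2 they were Alox15 (r = 0.963, Spearman rho = 0.853), Hba-a3 (0.933, 0.909), Slc3a2 (0.925, 0.643), Gpt2 (0.924, 0.79) and Rpusd3 (0.92, 0.762). Alox15 is a lipoxygenase gene, known from rabbit for its abundance in reticulocytes. It had intensities of 20.5 to 30.3 on the 9 DEN arrays, against 91.8, 176 and 65.8 in control, and correlated with Alas2 at 0.69 after subtraction of group means. For Hbb the closest genes were Hba-a3 (r = 0.945, rho = 0.958), Pdhb (0.917, 0.902), Sgpl1 (0.916, 0.853), Araf (0.908, 0.874) and Tsc22d3 (0.903, 0.909). After subtraction of group means Hba-a3 kept a correlation of 0.85 with Hbb, while Sgpl1 had 0.50, Araf 0.24, Pdhb 0.20 and Tsc22d3 0.19.

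For Slc4a1 the closest genes were Tsc22d3 (r = 0.937, rho = 0.979), Slc25a32 (0.936, 0.951), Usp2 (0.926, 0.944), Ptgis (0.926, 0.916) and Pim3 (0.919, 0.867). Tsc22d3, a gene known to respond to glucocorticoids, had 561, 759 and 571 in control, 312, 349 and 493 in hepatitis, 288, 324 and 292 in cirrhosis and 139, 229 and 178 in HCC, and kept 0.82 with Slc4a1 after subtraction of group means. For Ahsp they were Aopep (r = 0.91, rho = 0.706), Qsox1 (0.87, 0.762), Lcmt1 (0.856, 0.734), Akap5 (0.854, 0.685) and the metallothionein gene Mt2A (0.835, 0.741). Without the 2 arrays farthest from the member's median, r was 0.803 to 0.933 for the genes near Alas2, 0.858 to 0.963 for Hbb, 0.82 to 0.966 for Slc4a1 and 0.65 to 0.838 for Ahsp. Of the 4 sets, those of Alas2 and Hbb hold the alpha globin gene Hba-a3, and those of Slc4a1 and Ahsp hold no globin gene. Genes with LOC or RGD symbols could not enter any of these sets. Nor could probe sets annotated to several genes, among them those of globin genes.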

How the data were processed

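Total RNA was extracted with TRIzol, biotin-labelled and hybridised, per the labels' protocols. The deposited values are linear intensities, 1 per probe set and array, with similar medians and upper quartiles on all arrays. MAS5 and RMA stand in the submitters' processing notes with no role or order, and which of them made the values is not stated there. All 12 value columns were used and 0 were left out. Of 31099 probe sets 57 array controls were removed. Of the rest 20826 had 1 gene symbol in the platform annotation, 436 had several and 9780 had none, and gene symbols were checked against RefSeq (GRCr8), where 50 were not found. All 31042 probe sets were fitted with limma 3.58.1 (lmFit, eBayes, R 4.3.3) on log2(value + 16) over 12 arrays and 4 groups, with 6 contrasts, 2-sided moderated tests, and a threshold of 0.05 on p-values adjusted by Benjamini and Hochberg's method across the probe sets of each contrast. Prior degrees of freedom were 1.6. List genes are represented by the probe set with the highest mean. The number of arrays limits the precision, and an exact permutation test of 3 against 3 cannot go below 0.1. The members and lists were chosen with earlier results of these data known. Named genes are all members, up to 4 called genes per list in order of absolute difference (or that with the smallest adjusted p), and markers of cell types. The 5 genes most like each member are named too, with LOC and RGD symbols passed over. Same-numbered arrays did not deviate together (r of -0.23 to 0.35 over 18 pairs, 2 of them over 0.1), so the numbers were not used to pair samples. Python (3.11.15) with numpy (2.4.6) and pandas (2.3.3) wrote the tables, and matplotlib (3.10.9) drew the plots. Alternatives were another added constant, a filter on dim probe sets, quantile normalization, fits of 2 groups, a replicate block, a variance trend, 1 probe set per gene and leaving out each array.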

Additional observations from a re-analysis of the deposited data

How the results depend on the processing

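Every alternative kept the direction of each called difference of the 5 probe sets. Without 1 array, the number called was 1 to 2 in hepatitis, 1 to 4 in cirrhosis and 3 to 5 in HCC against control, and 0, 1 to 3 and 1 in cirrhosis against hepatitis, HCC against hepatitis and HCC against cirrhosis. With the dimmest 30% of probe sets left out, or with a variance trend, 2 were called in hepatitis, Ahsp being added (limma adjusted p = 0.0432 and 0.042). With the arrays of the 2 groups only, 3 were called in HCC against control and 1 in HCC against hepatitis; Ahsp (0.133) and the dimmer Slc4a1 probe set (0.0876) were lost in the first, and both Slc4a1 probe sets (0.0619 and 0.103) in the second. The replicate block, which the data did not bear out as a pairing, ended the calls of Hbb in cirrhosis (0.0934) and of Ahsp in HCC (0.0509) and no other of these calls, and gave 717 calls over all probe sets in cirrhosis, against 1125, and 133 in cirrhosis against hepatitis, against 202. With log2(value + 64) Hbb in cirrhosis (0.0622) and Slc4a1 in HCC against hepatitis (0.059) were lost. Direction turned only in uncalled differences: the dimmer Slc4a1 probe set in hepatitis without control replicate 2 (0.02; range without 1 array -0.09 to 0.02), Alas2 in cirrhosis against hepatitis without hepatitis replicate 1 (0.10), hepatitis replicate 3 (0.07) or cirrhosis replicate 1 (0.03; range -0.31 to 0.10), and Ahsp there without hepatitis replicate 1 (0.00; range -0.28 to 0.00). Calls over all probe sets ran from 297 to 1652 in hepatitis, against 916, from 194 to 1884 in cirrhosis, against 1125, and from 63 to 439 in cirrhosis against hepatitis, against 202, when 1 array was left out. With 2 groups only they were 4949 in cirrhosis, 4994 in HCC (against 9237), 466 in cirrhosis against hepatitis, 3793 in HCC against hepatitis (against 8990) and 6499 in HCC against cirrhosis (against 10008). With 1 probe set per gene they were 568, 474 and 5512 against control, 4972 in HCC against hepatitis and 5278 in HCC against cirrhosis. The cause was not tested. Intensities of Ahsp and Slc4a1 near the added 16, and of Alas2 at the DEN stages near the array median, limit what their differences can show.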
